A study of Homo sapiens with 9 samples.

Results

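The comparison is between 2 clones of MDA-MB-231 cells, a triple-negative human breast cancer line, in which the same gene was silenced with different hairpins. The 3 shGLO1#2 libraries were set directly against the 3 shGLO1#1 libraries, 6 of the 9 RNA libraries of the series, and the other 3 came from a control clone with a non-targeting hairpin (shNT). Each condition was 1 stably transduced clone, so the hairpin, the clone and the degree of GLO1 depletion cannot be told apart, and the p-values measure the spread between the 3 libraries of a clone and not the spread between clones. Levels are given as CPM, counts per 1000000 counts of a library whose size was scaled by the trimmed mean of M values (TMM), and a difference is the log2 fold change of shGLO1#2 over shGLO1#1, so that a positive value is a gene higher in shGLO1#2. Calls needed both an adjusted p below 0.05 in edgeR's quasi-likelihood test and a log2 fold change beyond 1 in either direction, here named the fold limit.

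GLO1 encodes glyoxalase 1, the enzyme that clears methylglyoxal (MG), a reactive by-product of glycolysis that glycates proteins, lipids and nucleic acids. Cells that lose the enzyme accumulate MG adducts, a state known as dicarbonyl stress. A stable clone is grown out of few cells and carries whatever those cells carried, so clones of a genetically unstable cancer line can differ in the state and number of their chromosome segments as well as in the silenced gene.

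Gene counts per library ran from 15314238 to 18495576, with 16329 to 17067 genes detected, and no library was a copy of another. A few markers of breast lineage were read in every clone library. VIM, the mesenchymal intermediate filament protein, lay between 3059 and 4383 CPM, while ESR1, the estrogen receptor, did not exceed 0.432 CPM and KRT5, a basal keratin, had no count. Other members of that list were present, with GATA3 between 6.64 and 8.32 CPM and EPCAM between 9.56 and 13.8 CPM. Of 21 tested lineage markers 1 was called higher (4.76%, against 3.33% of all tested genes) and 3 lower (14.3%, against 3.75%) in shGLO1#2. CPM summed over 38 leukocyte and endothelial genes ranged from 367 to 409 in shGLO1#1 and from 506 to 599 in shGLO1#2, against 252 to 304 in shNT. The difference between the GLO1-depleted clones rested largely on LCP1, at 30.3 to 54.7 CPM in shGLO1#1 and 183 to 230 CPM in shGLO1#2. LAPTM5 went the other way, at 109 to 120 CPM against 68.6 to 87.0 CPM, so the sums do not show a rise of the whole list. The T cell gene CD3E had at most 0.0617 CPM in the clone libraries, and 11 or 12 of the 38 genes were at 0 in each. Fewer cells of a type and less RNA per cell cannot be told apart in such bulk samples.

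GLO1 itself separated the clones. It measured 64.2, 65.9 and 65.9 CPM in the shGLO1#1 libraries and 14.6, 15.5 and 14.0 CPM in the shGLO1#2 libraries, so the groups did not overlap. These levels were 20.6% and 4.63% of the shNT mean, and GLO1 fell by 2.15 on the log2 scale from shGLO1#1 to shGLO1#2 (SE 0.06, adjusted p = 1.24e-10). GLO1 lies on chromosome 6, and the 24 tested genes nearest to it had a median log2 fold change of -0.63, with 3 of the 24 higher in shGLO1#2. With that median subtracted, the difference in GLO1 was -1.52.

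Of 13704 tested genes, 457 were called higher in shGLO1#2 (3.33%) and 514 lower (3.75%). Without the limit on fold change, 3126 genes passed the test as higher (22.8%) and 3243 as lower (23.7%), while the median over all tested genes was -0.01. More than 4-fold differences were called for 151 genes higher and 93 genes lower in shGLO1#2. The plot of level against difference shows called genes at low and at high levels.

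**Figure D1:**
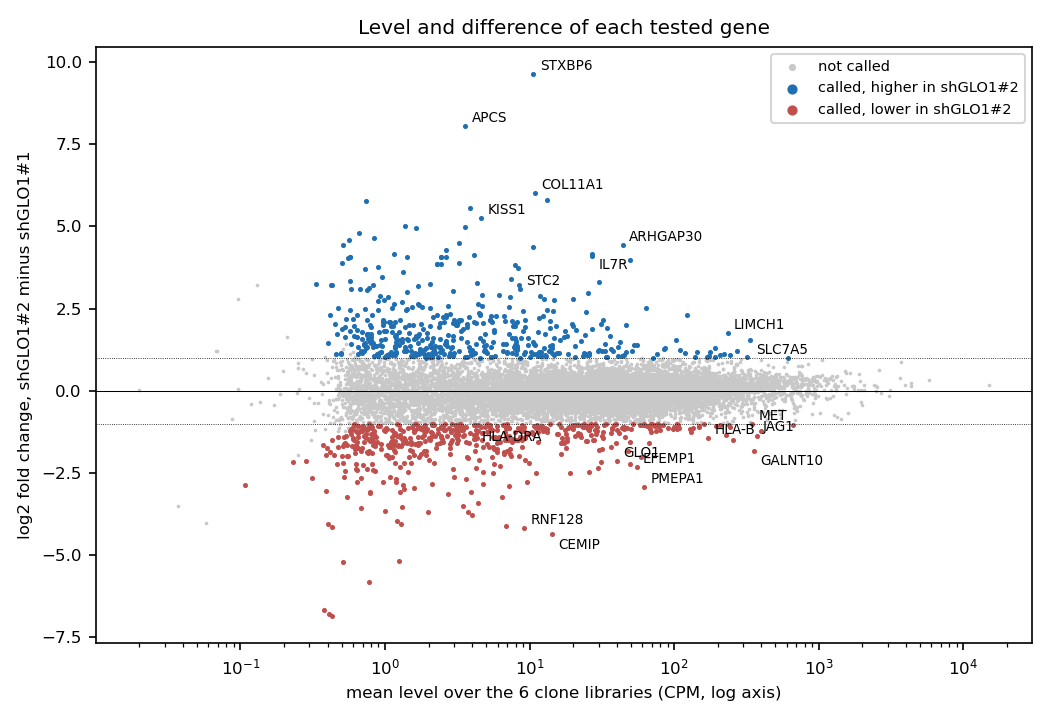
Each point is 1 of 13704 tested genes, with its mean CPM over the 6 clone libraries on a log axis and its log2 fold change, shGLO1#2 minus shGLO1#1. Blue points are the 457 genes called higher and red points the 514 called lower in shGLO1#2, and the dotted lines mark a log2 fold change of 1 in either direction.

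The genes with the largest differences were nearly silent in 1 clone. STXBP6, which encodes amisyn, a protein that binds exocytic SNARE complexes, measured 21, 19.5 and 23.1 CPM in shGLO1#2. In shGLO1#1 it had 1 count in the 3 libraries together, a ratio of 1102 with an exact 95% interval of 197 to 43590 for counting error. APCS, the serum amyloid P component, likewise rested on 1 count in shGLO1#1 against 358 in shGLO1#2 (ratio 369.9, interval 65.97 to 14650). These ratios are wide because the low clone gave almost no reads. In shNT cells STXBP6 had 0.0672, 0.196 and 0.166 CPM, so the high level belonged to shGLO1#2.

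COL11A1, a fibrillar collagen chain, measured 35.2, 11.8 and 17.4 CPM in shGLO1#2 and 0.370, 0.218 and 0.399 CPM in shGLO1#1 (log2 fold change 6.0, SE 0.49). ARHGAP30, which encodes a GTPase-activating protein, measured 108, 75.3 and 70.8 CPM against 3.76, 4.90 and 3.08 CPM (log2 fold change 4.43, SE 0.20). Every shGLO1#2 library also exceeded every shNT library for both genes, while the lack of overlap with shGLO1#1 was part of the rule that picked them. The remaining genes of this group were TNS1, which links integrin adhesions to actin (log2 fold change 5.56), PDE1C, a calmodulin-dependent phosphodiesterase (4.99), PAPPA2, a protease of insulin-like growth factor binding proteins (4.49), and the long noncoding RNA CCAT1 (4.28).

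KISS1, the metastasis suppressor that encodes kisspeptin, lay on opposite sides of the control clone. It measured 9.44, 9.77 and 7.76 CPM in shGLO1#2, 0.185, 0.163 and 0.342 CPM in shGLO1#1 and 4.50, 3.39 and 2.77 CPM in shNT, and the 3 clones did not overlap. The log2 fold change between the GLO1-depleted clones was 5.24 (SE 0.29, adjusted p = 3.13e-08). PTGS1, the constitutive cyclooxygenase, had the same arrangement, with 28.7, 12.6 and 19.4 CPM in shGLO1#2, 0.864, 1.25 and 0.741 CPM in shGLO1#1 and 5.24, 2.61 and 4.48 CPM in shNT (log2 fold change 4.39, SE 0.35).

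Among called genes lower in shGLO1#2 with at least 5 CPM in the higher clone and no overlap between libraries, CEMIP, which is needed for the breakdown of hyaluronan, had the largest difference. It measured 20.4, 29.2 and 32.6 CPM in shGLO1#1 and 0.853, 1.68 and 1.43 CPM in shGLO1#2 (log2 fold change -4.36, SE 0.23, adjusted p = 1.79e-08), with shNT between them at 8.53, 7.17 and 8.47 CPM. RNF128, a transmembrane ubiquitin ligase, measured 16.2, 19.6 and 16.3 CPM in shGLO1#1 and 0.853, 1.23 and 0.745 CPM in shGLO1#2 (log2 fold change -4.18, SE 0.18). PMEPA1, a target and feedback inhibitor of TGF-beta signalling, measured 97.1, 134 and 98.3 CPM in shGLO1#1 and 11.3, 18.8 and 12.8 CPM in shGLO1#2 (log2 fold change -2.93, SE 0.17). The lack of overlap between the clones was part of the rule that picked these genes. The matrix glycoprotein gene EMILIN2 (log2 fold change -3.50), the glycosyltransferase gene B3GNT7 (-3.79), PALM, which encodes the membrane protein paralemmin (-3.68), the urea transporter gene SLC14A1 (-3.41) and RNF43, a ubiquitin ligase that removes Wnt receptors (-3.24), were lower too.

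**Figure D2:**
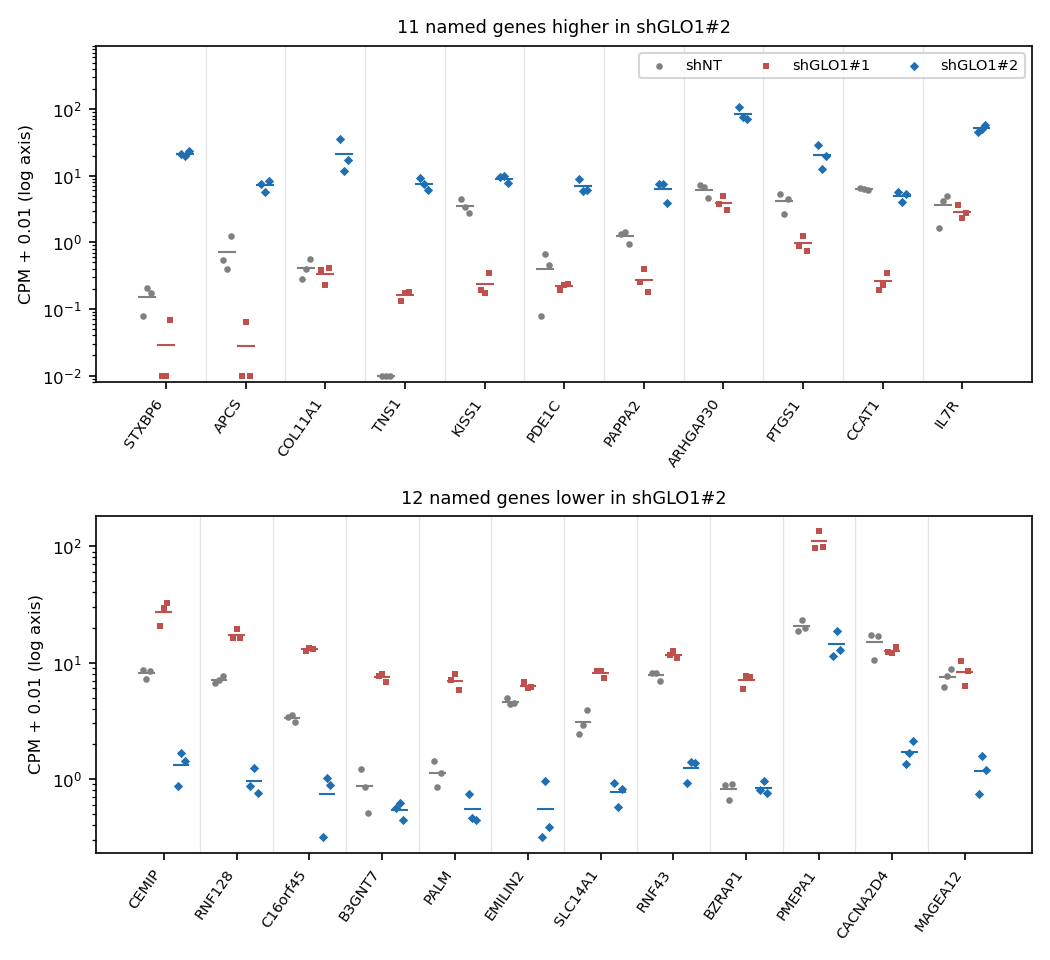
Points are single libraries and short lines are means of 3 libraries, in CPM plus 0.01 on a log axis, for shNT (grey circles), shGLO1#1 (red squares) and shGLO1#2 (blue diamonds). The upper panel holds 11 of the 12 called genes with the largest fold change higher in shGLO1#2 and the lower panel the 12 with the largest fold change lower, each with a mean of at least 5 CPM in the higher clone. The choice of these genes required that no shGLO1#1 library overlap a shGLO1#2 library.

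Genes of cholesterol synthesis and uptake separated the clones as a group. Cells make cholesterol from acetyl-CoA through mevalonate and squalene, and the transcription factor SREBP2, encoded by SREBF2, turns the enzymes on when sterols run low. Of the 25 tested members, 8 were called higher in shGLO1#2 (32%, against 3.33% of all tested genes) and 0 lower (against 3.75%). Without the limit on fold change 22 passed as higher (88%, against 22.8%) and 0 as lower (against 23.7%). The median log2 fold change was 0.73, against -0.01 over all tested genes. Against shNT the same members had medians of -0.80 in shGLO1#1 and 0.07 in shGLO1#2, 2 comparisons that share the shNT libraries.

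HMGCS1, which forms the HMG-CoA from which mevalonate is made, measured 121, 86.1 and 124 CPM in shGLO1#1 and 236, 256 and 321 CPM in shGLO1#2 (log2 fold change 1.30, SE 0.15, adjusted p = 1.49e-05). SQLE, the squalene epoxidase, measured 33.4, 28.7 and 30.8 CPM against 68, 67.2 and 77.9 CPM (log2 fold change 1.20, SE 0.08). MVD, the mevalonate diphosphate decarboxylase, measured 26.4, 20.6 and 19.8 CPM against 64.6, 59.0 and 62.0 CPM (log2 fold change 1.48, SE 0.11). For these enzymes the shGLO1#2 libraries lay near or above the shNT libraries, which held 172, 221 and 252 CPM of HMGCS1, and the shGLO1#1 libraries lay below them.

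PMVK, the phosphomevalonate kinase, was among the 3 members that did not pass the test, with a log2 fold change of 0.06 (SE 0.09), and is named here after its value was seen.

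The sterol genes lay on 14 chromosomes, and they were also set beside their neighbours. For each member the median log2 fold change of the 24 nearest tested genes was taken, leaving out genes of the same list. The middle value of these medians was -0.01, and 24 of 25 members lay above their own neighbours. The highest neighbour medians were those of MVD on chromosome 16, at 0.60 with 24 of 24 higher, and of SQLE on chromosome 8, at 0.36 with 18 of 24 higher. With the neighbour median subtracted, 6 members were called higher and the list's median was 0.69. MVD then stood at 0.88 and SQLE at 0.84, under the fold limit. Chosen after their values were seen, DHCR7, of the last steps of synthesis, lost its call too, and EBP, a sterol isomerase with a log2 fold change of 0.90 and neighbours at -0.34, gained one.

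**Figure D3:**
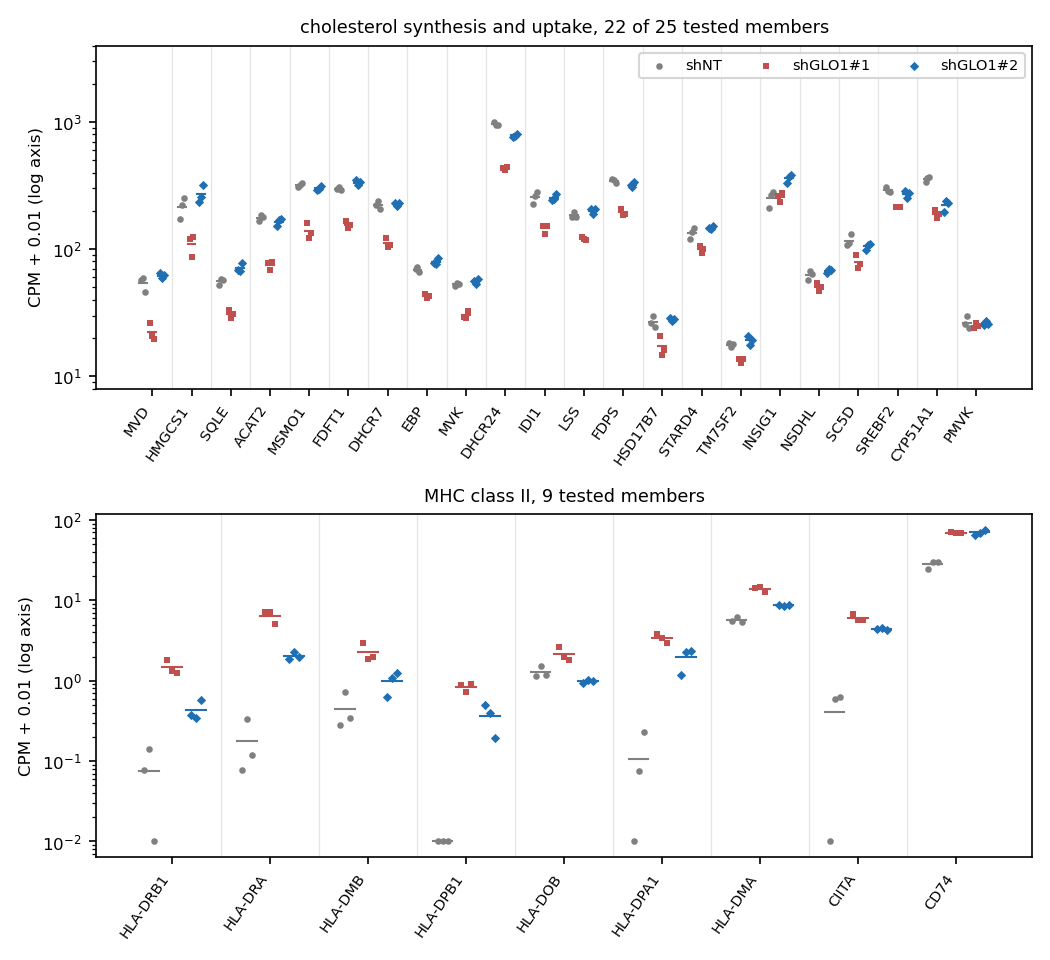
Points are single libraries and short lines are means of 3 libraries, in CPM plus 0.01 on a log axis, for shNT (grey circles), shGLO1#1 (red squares) and shGLO1#2 (blue diamonds). In the upper panel 22 sterol genes are drawn, most of them lower in shGLO1#1 than in either other clone. In the lower panel most of the 9 MHC class II genes are above shNT in both GLO1-depleted clones and highest in shGLO1#1.

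The list of integrated stress and unfolded protein response genes also leaned higher in shGLO1#2, with members that went the other way. The integrated stress response runs through ATF4, a transcription factor made when amino acids or other inputs of protein synthesis fail, which turns on amino acid transporters and synthesis enzymes, while the unfolded protein response raises the folding capacity of the endoplasmic reticulum. Of 31 tested members 4 were called higher (12.9%, against 3.33% of all tested genes) and 0 lower (against 3.75%). Without the limit on fold change 19 passed as higher (61.3%, against 22.8%) and 4 as lower (12.9%, against 23.7%). The median log2 fold change was 0.46. Against shNT the list had medians of -0.37 in shGLO1#1 and -0.01 in shGLO1#2.

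STC2, a secreted glycoprotein induced by ATF4, measured 2.04, 1.58 and 1.71 CPM in shGLO1#1, 21.6, 9.05 and 15.1 CPM in shGLO1#2 and 19.6, 12.3 and 13.1 CPM in shNT (log2 fold change 3.10, SE 0.32, adjusted p = 4.55e-06). SLC7A5, the large neutral amino acid transporter, measured 157, 164 and 188 CPM in shGLO1#1 and 461, 485 and 550 CPM in shGLO1#2 (log2 fold change 1.56, SE 0.08, adjusted p = 1.20e-08). SLC7A5 lies on chromosome 16, and its value was 0.96 with the median of its neighbours subtracted. TRIB3, a pseudokinase that restrains ATF4, had a log2 fold change of 1.19, and PSAT1, an enzyme of serine synthesis, one of 1.17. ATF4 mRNA measured 274, 263 and 277 CPM in shGLO1#1 and 384, 370 and 384 CPM in shGLO1#2 (log2 fold change 0.48, SE 0.05, adjusted p = 1.97e-06), under the fold limit. Named after their values were seen, genes of endoplasmic reticulum folding had log2 fold changes of either sign. The chaperone gene HSPA5 had one of 0.14 and SDF2L1 one of 0.48. HSP90B1 had one of -0.22, PDIA4 one of -0.20, CALR one of -0.26 and CRELD2 one of -0.35.

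ATF4 with its partners binds elements of the type TGATGNAA, and such letters were looked for on both strands of RefSeq promoters (GRCh38.p14), which run from upstream to just downstream of each start. Of the 31 tested members 29 had a promoter in the table, and 5 of these held a match (17.2%), against 1.66% of the promoters of 10754 tested genes. The stretches upstream of 3 members that passed the test as higher are printed below, because they show the searched letters in members of the list, with the match in capitals and 5′ to 3′ on the strand of the gene. They come from ASNS, the asparagine synthetase gene (minus strand, chr7:97872439-97872506), CHAC1, which encodes an enzyme that degrades glutathione (plus strand, chr15:40953232-40953299), and HERPUD1, a gene of endoplasmic reticulum protein degradation (plus strand, chr16:56931936-56932003).
ASNS: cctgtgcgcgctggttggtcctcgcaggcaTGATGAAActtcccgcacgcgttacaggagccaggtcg
CHAC1: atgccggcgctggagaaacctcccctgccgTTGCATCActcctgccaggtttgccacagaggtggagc
HERPUD1: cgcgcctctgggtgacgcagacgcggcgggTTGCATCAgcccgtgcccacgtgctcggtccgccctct
ASNS measured 49.2, 47.1 and 43.1 CPM in shGLO1#1 and 80.1, 90.1 and 70.8 CPM in shGLO1#2 (log2 fold change 0.79, SE 0.10, adjusted p = 3.31e-05), HERPUD1 had a log2 fold change of 0.93 and CHAC1 one of 0.43. The neighbours of HERPUD1 on chromosome 16 had a median of 0.45, those of ASNS one of -0.50 and those of CHAC1 one of 0.01. The 5 members with a match had a median log2 fold change of 0.79 and the others with a promoter 0.29, while the median over all tested genes with a match was 0.03. A match is a description of the letters and not a bound site.

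Enzymes that clear MG and related aldehydes included calls in both directions. Besides glyoxalases, aldo-keto reductases convert MG and related aldehydes to alcohols. Of 21 tested genes of aldehyde clearance 2 were called higher in shGLO1#2 (9.52%, against 3.33% of all tested genes) and 1 lower, GLO1 itself (4.76%, against 3.75%), with 8 and 2 passing without the limit on fold change and a median of -0.04. AKR1C1 measured 0.987, 1.20 and 1.37 CPM in shGLO1#1 and 5.36, 3.91 and 6.64 CPM in shGLO1#2 (log2 fold change 2.15, SE 0.31, adjusted p = 8.21e-05), and its close relative AKR1C3 measured 10.9, 9.52 and 8.27 CPM against 24.4, 20 and 19.4 CPM (log2 fold change 1.15, SE 0.24). These near copies may share reads. HAGH, the second enzyme of the glyoxalase system, named after its value was seen, measured 30.3, 34.6 and 34.7 CPM against 29.7, 26.3 and 26.4 CPM (log2 fold change -0.27, SE 0.08, adjusted p = 0.0168).

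NRF2 drives antioxidant and glutathione genes. Of 37 tested members 2 were called higher (5.41%, against 3.33% of all tested genes) and 0 lower (against 3.75%). Without the limit on fold change 15 passed as higher (40.5%, against 22.8%) and 5 as lower (13.5%, against 23.7%). The median was 0.07. NQO1, the quinone reductase, measured 108, 109 and 121 CPM in shGLO1#1, 249, 208 and 249 CPM in shGLO1#2 and 134, 128 and 139 CPM in shNT (log2 fold change between the GLO1-depleted clones 1.06, SE 0.07, adjusted p = 1.49e-07). OSGIN1, an oxidative stress response gene, was the other (log2 fold change 1.17). Both lie on chromosome 16, and with the neighbour median subtracted they stood at 0.55 and 0.59, under the fold limit. Of 24 glycolysis and lactate export genes 2 were called higher (8.33%) and 0 lower, with a median of 0.18. One of the called was ALDOC, an aldolase, at 11.7, 11.3 and 11.5 CPM in shGLO1#1 and 37.3, 23.8 and 27.1 CPM in shGLO1#2 (log2 fold change 1.36, SE 0.16, adjusted p = 1.48e-05).

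Ribosomal protein genes were mostly higher in shGLO1#2 by small amounts. Of 66 tested cytosolic ribosomal protein genes 60 passed the test as higher (90.9%, against 22.8% of all tested genes) and 2 as lower (3.03%, against 23.7%). Only RPL13 exceeded the fold limit (1.52% of the list, against 3.33% called higher of all tested genes). The median log2 fold change was 0.38. RPS4X, which is encoded on the X chromosome, fell by 0.72 and RPS27A by 0.25 on the log2 scale, both named after their values were seen. RPL13 measured 382, 421 and 417 CPM in shGLO1#1 and 830, 797 and 830 CPM in shGLO1#2 (log2 fold change 1.01, SE 0.06), and without shGLO1#1 replicate 1 the value was 0.97, under the fold limit. AARS, the alanyl-tRNA synthetase gene and among the 5 most abundant genes called higher, measured 159, 167 and 165 CPM against 384, 394 and 370 CPM (log2 fold change 1.23, SE 0.05, adjusted p = 5.81e-09). Both RPL13 and AARS lie on chromosome 16, with neighbours whose medians were 0.70 and 0.55.

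Of 55 tested cell cycle and mitosis genes 34 passed without the fold limit as higher (61.8%, against 22.8% of all tested genes). As lower 6 passed (10.9%, against 23.7%), and the median was 0.22. Past the fold limit 1 member was called in each direction (1.82%), under the 3.33% higher and 3.75% lower of all tested genes. The called members were CDT1, which licenses replication origins, at 22.3, 24.9 and 22.1 CPM in shGLO1#1 and 58.9, 57.5 and 60.1 CPM in shGLO1#2 (log2 fold change 1.35), and CCND2, the cyclin D2 gene, at 2.84, 2.72 and 1.08 CPM against 0.487, 0.558 and 0.372 CPM (log2 fold change -2.20). Of 20 heat shock chaperones 11 passed without the fold limit as higher (55%) and 1 as lower (5%), with a median of 0.28. Past it 1 was called higher (5%, near the 3.33% of all tested genes) and 0 lower. HSPA6, a strictly inducible HSP70, was the called member, at 1.05, 0.490 and 0.228 CPM in shGLO1#1 and 3.29, 1.90 and 1.80 CPM in shGLO1#2 (log2 fold change 1.99, SE 0.40, adjusted p = 0.00109).

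**Figure D4:**
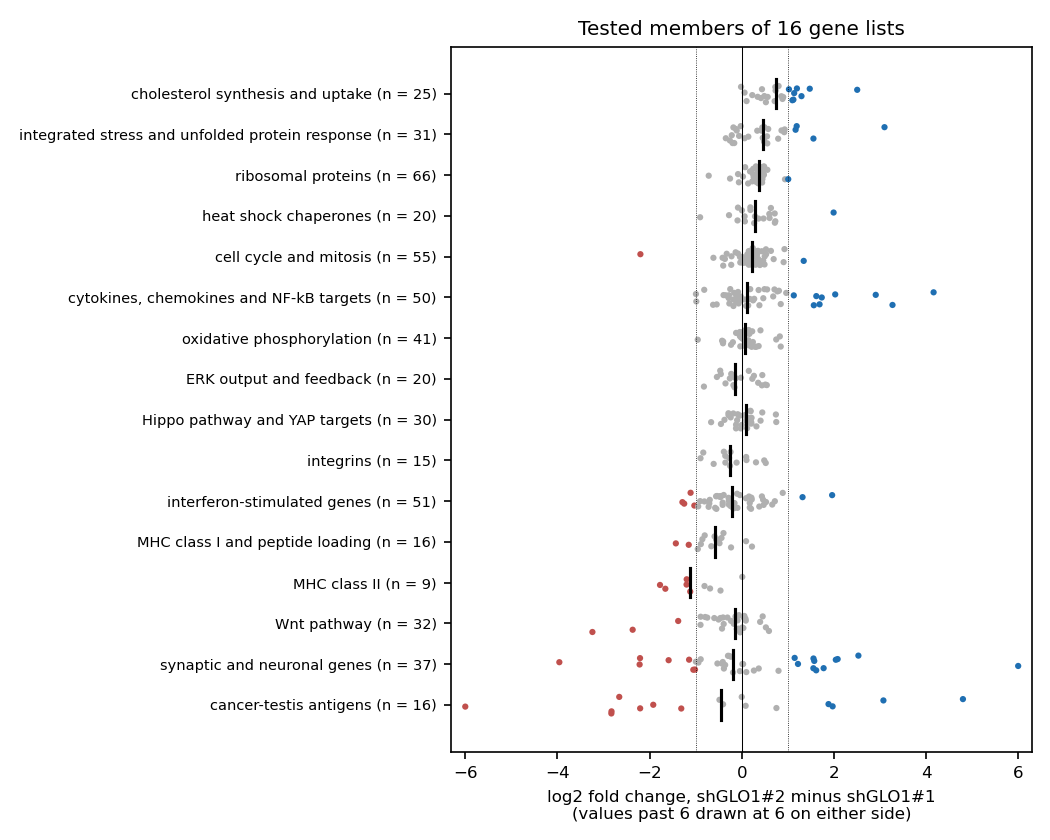
Each point is a tested member of 1 of 16 gene lists at its log2 fold change, shGLO1#2 minus shGLO1#1, with members called higher in blue, called lower in red and others in grey. Black bars are list medians, which run from 0.73 for cholesterol synthesis to -1.12 for MHC class II, and dotted lines mark a log2 fold change of 1 in either direction.

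Antigen presentation genes were lower in shGLO1#2 than in shGLO1#1. MHC class II molecules present peptides to helper T cells and are normally confined to antigen-presenting cells, but tumour cells can make them under CIITA, the class II transactivator. Of 9 tested class II genes 5 were called lower (55.6%, against 3.75% of all tested genes) and 0 higher (against 3.33%). Without the limit on fold change 7 passed as lower (77.8%, against 23.7%) and 0 as higher (against 22.8%). The median log2 fold change was -1.12. Against shNT the median was 3.84 in shGLO1#1 and 2.61 in shGLO1#2, from the same shNT libraries.

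HLA-DRA, the alpha chain of HLA-DR, measured 7.10, 7.18 and 5.08 CPM in shGLO1#1, 1.83, 2.29 and 1.99 CPM in shGLO1#2 and 0.0672, 0.326 and 0.111 CPM in shNT, 3 ranges that did not overlap (log2 fold change between the GLO1-depleted clones -1.66, SE 0.22, adjusted p = 3.46e-05). HLA-DRB1, its polymorphic partner, measured 1.79, 1.31 and 1.25 CPM against 0.365, 0.335 and 0.558 CPM (log2 fold change -1.77, SE 0.35, adjusted p = 0.00106). HLA genes are near copies of each other, so the split of reads between them is uncertain. HLA-DMB, a chain of the peptide exchange factor, had a log2 fold change of -1.20, which was -0.96 without shGLO1#1 replicate 1 or without shGLO1#2 replicate 1. The call of HLA-DPB1 (log2 fold change -1.19) was lost without shGLO1#1 replicate 1 or 3 or shGLO1#2 replicate 2 or 3, at values of -0.90 to -1.27. Named after their values were seen, CIITA measured 6.73, 5.6 and 5.7 CPM in shGLO1#1 and 4.32, 4.52 and 4.22 CPM in shGLO1#2 without passing the test (log2 fold change -0.46, SE 0.24, adjusted p = 0.138), and CD74, the chaperone of class II chains, had a log2 fold change of 0.01 (SE 0.08).

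Class I genes were lower by less. Of 16 tested members of class I and peptide loading 14 passed as lower (87.5%, against 23.7% of all tested genes) and 1 as higher (6.25%, against 22.8%). Past the fold limit 2 were called lower (12.5%, against 3.75%) and 0 higher. The median log2 fold change was -0.57. HLA-B measured 235, 273 and 244 CPM in shGLO1#1, 90.8, 92.0 and 96.4 CPM in shGLO1#2 and 52.1, 81.6 and 78.7 CPM in shNT (log2 fold change between the GLO1-depleted clones -1.43, SE 0.12, adjusted p = 7.39e-07). PSMB9, a subunit of the immunoproteasome, measured 16.1, 17.8 and 16.9 CPM against 9.32, 7.26 and 6.33 CPM (log2 fold change -1.15, SE 0.13).

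Of these genes 7 of 9 class II and 10 of 16 class I members lie on chromosome 6. The middle value of their neighbour medians was -0.41 for class II and -0.26 for class I, with a range from -0.43 to 0.11 and from -0.43 to 0.61. The 24 tested genes nearest to HLA-DRA, leaving out the class I and II members, had a median log2 fold change of -0.41, with 4 of 24 higher. Against shNT these neighbours had medians of 0.04 in shGLO1#1 and -0.40 in shGLO1#2. All 9 class II members and all 16 class I members lay below their own neighbours. These include members that were not lower in shGLO1#2, such as CD74 at 0.01 with neighbours at 0.11, and PSMB10 at 0.09 with neighbours at 0.60. Members on chromosome 6 share many neighbours, so the members are not independent of each other. With the neighbour median subtracted, the class II median was -0.70 with 2 members called lower, and the class I median was -0.41 with 1 called.

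A Y box with the letters CTGATTGG belongs to class II promoters. It was found in 2 of the 7 members with a RefSeq promoter, too few of the 9 tested genes for a share to be read. The stretches are printed to show the element in the genes that fell, with the match in capitals, from HLA-DRB1 (minus strand, chr6:32589860-32589927) and HLA-DMA, the partner of HLA-DMB (minus strand, chr6:32953142-32953209).
HLA-DRB1: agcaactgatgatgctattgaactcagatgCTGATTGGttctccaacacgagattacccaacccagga
HLA-DMA: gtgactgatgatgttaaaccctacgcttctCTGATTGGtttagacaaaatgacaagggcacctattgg
HLA-DMA measured 14.1, 14.8 and 12.7 CPM in shGLO1#1 and 8.65, 8.38 and 8.81 CPM in shGLO1#2, which is -0.69 on the log2 scale (SE 0.11, adjusted p = 0.000212).

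The interferon-stimulated genes leaned lower in shGLO1#2. Interferon signalling acts through STAT proteins and IRF9 on response elements in the promoters of antiviral genes. Of 51 tested members 24 passed as lower in shGLO1#2 (47.1%, against 23.7% of all tested genes) and 9 as higher (17.6%, against 22.8%). Past the fold limit were 4 lower (7.84%, against 3.75%) and 2 higher (3.92%, near the 3.33% of all tested genes). The median log2 fold change was -0.20. OAS2, a sensor of double-stranded RNA, measured 60.3, 60.5 and 55.2 CPM in shGLO1#1, 24.9, 23.8 and 23.5 CPM in shGLO1#2 and 10.5, 15.1 and 15.9 CPM in shNT (log2 fold change between the GLO1-depleted clones -1.29, SE 0.11, adjusted p = 7.54e-07). MX1, an antiviral GTPase, went the other way, at 3.95, 2.45 and 3.36 CPM in shGLO1#1 and 14.4, 10.7 and 12.8 CPM in shGLO1#2 (log2 fold change 1.96, SE 0.22, adjusted p = 9.88e-06). Its paralogue MX2 had a log2 fold change of 1.32 and OAS1 one of -1.25.

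The interferon response element, taken as 2 copies of GAAA with 2 bases of any kind between them, was found on either strand in 27 of 41 members with a promoter (65.9%), against 2.91% of the promoters of 10754 tested genes. Members with a match had a median log2 fold change of -0.20 and members without one -0.28. The element is printed for a gene that was lower and a gene that was higher in shGLO1#2, IFI44L (plus strand, chr1:78620345-78620414) and IFI27 (plus strand, chr14:94110611-94110680), with 1 match each in capitals.
IFI44L: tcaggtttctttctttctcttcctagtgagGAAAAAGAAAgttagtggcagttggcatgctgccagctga
IFI27: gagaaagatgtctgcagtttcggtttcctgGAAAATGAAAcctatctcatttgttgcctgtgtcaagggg
IFI44L measured 6.36, 7.34 and 5.13 CPM in shGLO1#1 and 2.86, 3.35 and 2.48 CPM in shGLO1#2 (log2 fold change -1.11, SE 0.21), and without shGLO1#1 replicate 2 the value was -0.98, under the fold limit. IFI27, chosen after its value was seen, measured 21.7, 29.6 and 27.3 CPM against 42.9, 38.8 and 43.0 CPM (log2 fold change 0.66, SE 0.10, adjusted p = 0.000117).

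Cytokines, chemokines and targets of NF-kB included called genes in 1 direction. Of 50 tested members 9 were called higher (18%, against 3.33% of all tested genes) and 0 lower (against 3.75%). Without the limit on fold change 18 passed as higher (36%, against 22.8%) and 8 as lower (16%, against 23.7%). The median was 0.12. IL7R, the interleukin 7 receptor, measured 3.64, 2.28 and 2.74 CPM in shGLO1#1, 45.7, 50.3 and 58.6 CPM in shGLO1#2 and 1.61, 4.11 and 4.98 CPM in shNT (log2 fold change 4.16, SE 0.23, adjusted p = 3.22e-08). CXCR4, the receptor of CXCL12, measured 0.679, 0.979 and 0.741 CPM in shGLO1#1 and 8.16, 8.10 and 7.26 CPM in shGLO1#2, both far below the 42.6 to 52.2 CPM of shNT (log2 fold change between the GLO1-depleted clones 3.27, SE 0.18). IL11, a cytokine of the interleukin 6 family, measured 12.3, 13.7 and 10.6 CPM in shGLO1#1, 49.5, 56.3 and 43.7 CPM in shGLO1#2 and 50.5, 49.7 and 34.0 CPM in shNT (log2 fold change 2.03, SE 0.15). IL24, of the interleukin 10 family, had a log2 fold change of 2.91. These genes stood in different places relative to shNT, with IL7R high in shGLO1#2, and CXCR4 and IL11 lowest in shGLO1#1.

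Some leukocyte genes expressed in tumour lines were part of the difference. LCP1, the actin bundler L-plastin, measured 54.7, 38.1 and 30.3 CPM in shGLO1#1 and 230, 201 and 183 CPM in shGLO1#2 (log2 fold change 2.32, SE 0.28), and CD33, a sialic acid-binding receptor, had a log2 fold change of 4.07. Of 38 listed leukocyte and endothelial genes 19 were tested. Among these, 4 were called higher (21.1%, against 3.33% of all tested genes) and 0 lower (against 3.75%). The filter keeps a gene with enough counts in 1 clone alone. The share therefore rests partly on genes that entered through the clone where they are high, such as CD33, and is a description. The part of these leukocyte genes in other results was not tested.

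The TGF-beta and BMP list had calls in both directions among 43 tested members. Called higher were 4 (9.3%, against 3.33% of all tested genes) and called lower 5 (11.6%, against 3.75%). Without the limit on fold change 8 passed as higher (18.6%, against 22.8%) and 17 as lower (39.5%, against 23.7%). The median was -0.18. SMAD7, an inhibitory SMAD and TGF-beta target, measured 6.23, 9.57 and 11.7 CPM in shGLO1#1 and 2.07, 2.57 and 3.54 CPM in shGLO1#2 (log2 fold change -1.76, SE 0.25, adjusted p = 6.86e-05). ID4, a target of BMP signalling, measured 15.4, 14.7 and 20.4 CPM against 2.98, 2.01 and 2.36 CPM (log2 fold change -2.78, SE 0.30). PMEPA1, given above, was lower in shGLO1#2 like them. ACVRL1, the type I receptor ALK1, was higher, with 81 counts in shGLO1#2 against 3 in shGLO1#1 (ratio 27.9, exact 95% interval 9.21 to 138 for counting error), and CHRDL1, a secreted BMP antagonist, had a log2 fold change of 2.28.

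Of 32 tested Wnt pathway genes 3 were called lower (9.38%, against 3.75% of all tested genes) and 0 higher (against 3.33%). These calls are too few for a direction to be read. Without the limit on fold change 11 passed as lower (34.4%, against 23.7%) and 2 as higher (6.25%, against 22.8%), with a median of -0.15. The called genes were RNF43, at 11.6, 12.6 and 10.8 CPM in shGLO1#1 and 0.914, 1.40 and 1.37 CPM in shGLO1#2, the Wnt antagonist gene SFRP1 (log2 fold change -2.37) and the receptor gene FZD8 (-1.38). In the Notch and Hedgehog list 4 of 25 members were called higher (16%, against 3.33%) and 3 lower (12%, against 3.75%). JAG1, a Notch ligand, measured 502, 567 and 543 CPM in shGLO1#1 and 215, 195 and 217 CPM in shGLO1#2 (log2 fold change -1.36, SE 0.06, adjusted p = 8.97e-09), with shNT between 266 and 298 CPM. GLI2, the Hedgehog transcription factor, was higher in shGLO1#2 (log2 fold change 2.35), as was the Notch target HEYL (2.52).

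Of 66 listed receptor tyrosine kinases and their ligands 45 were tested. Among these, 6 were called higher (13.3%, against 3.33% of all tested genes) and 5 lower (11.1%, against 3.75%). The limit of the filter given for the leukocyte list holds for these shares too. PDGFRB, the receptor of PDGF-B, measured 1.05, 1.25 and 1.31 CPM in shGLO1#1 and 6.70, 3.18 and 5.77 CPM in shGLO1#2 (log2 fold change 2.1, SE 0.32). The growth factor gene FGF1 had a log2 fold change of 1.61. DDR1, a collagen receptor, measured 62.1, 64.6 and 59.9 CPM in shGLO1#1 and 33.8, 23.6 and 25.9 CPM in shGLO1#2 (log2 fold change -1.17, SE 0.12, and -0.94 with its neighbour median subtracted). MET, the receptor of hepatocyte growth factor and among the 5 most abundant genes called lower, measured 454, 452 and 487 CPM against 200, 258 and 232 CPM (log2 fold change -1.01, SE 0.08). Its value was -0.98 without shGLO1#1 replicate 3 and -0.92 without shGLO1#2 replicate 1, both under the fold limit, and the 24 genes nearest to it on chromosome 7 had a median of -0.48.

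Genes of the extracellular matrix (ECM) were called in both directions. Of 10 tested fibrillar and beaded filament collagens 3 were called higher (30%) and 2 lower (20%). Of 15 basement membrane and other collagens 1 was called higher (6.67%) and 3 lower (20%). The shares over all tested genes were 3.33% and 3.75%. COL6A3, a chain of collagen VI, measured 43.3, 56.0 and 49.3 CPM in shGLO1#1, 12.7, 8.21 and 8.19 CPM in shGLO1#2 and 2.75, 5.22 and 4.43 CPM in shNT (log2 fold change between the GLO1-depleted clones -2.35, SE 0.17, adjusted p = 2.47e-07). COL6A2, another chain of collagen VI, went the other way, at 5.68, 3.48 and 2.62 CPM in shGLO1#1 and 11, 7.09 and 9.18 CPM in shGLO1#2 (log2 fold change 1.22, SE 0.24, adjusted p = 0.000938), and its value was 0.997 without shGLO1#1 replicate 3, under the fold limit. COL11A1, given above, and COL27A1 (log2 fold change 1.30) were higher in shGLO1#2, while COL18A1, the source of endostatin, had a log2 fold change of -1.12. EFEMP1, the matrix glycoprotein fibulin-3, measured 73.8, 99.4 and 103 CPM in shGLO1#1, 13.7, 22.4 and 19.2 CPM in shGLO1#2 and 37.8, 37.4 and 40.5 CPM in shNT (log2 fold change between the GLO1-depleted clones -2.32, SE 0.15), so the clones lay on either side of the control.

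Among 10 tested hyaluronan genes 2 were called lower, CEMIP and HAS3, a hyaluronan synthase, which measured 8.33, 7.83 and 5.70 CPM in shGLO1#1 and 2.62, 2.29 and 1.80 CPM in shGLO1#2 (log2 fold change -1.70). The proteoglycan SRGN, serglycin, measured 51.7, 55.2 and 49.3 CPM in shGLO1#1 and 152, 157 and 148 CPM in shGLO1#2 (log2 fold change 1.55, SE 0.06, adjusted p = 9.41e-10), whereas SDC1, syndecan 1, measured 132, 149 and 129 CPM against 58.0, 73.8 and 59.8 CPM (log2 fold change -1.10, SE 0.10, and -0.65 with its neighbour median subtracted). Of 18 proteoglycan genes 3 were called in each direction. No gene was called among 10 laminins and nidogens, 15 integrins or 22 genes of the plasminogen and coagulation systems, whose medians were -0.14, -0.25 and -0.08. Lists this small hold few calls at the shares of all tested genes, 3.33% higher and 3.75% lower.

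Junction and cadherin genes were mixed as well. Epithelial junction and keratin genes were called 6 times in each direction among 38 members (15.8%). The shares over all tested genes were 3.33% higher and 3.75% lower. KRT81, a hair keratin, measured 5.74, 6.31 and 5.59 CPM in shGLO1#1 and 121, 66.6 and 89.4 CPM in shGLO1#2 (log2 fold change 3.97, SE 0.20, adjusted p = 1.20e-08), and its near copy KRT86 had a log2 fold change of 1.40, so part of their reads may not be separable. The tight junction gene CLDN1 was higher (log2 fold change 2.07) and SPINT1, an inhibitor of epithelial serine proteases, lower (-1.31). CDH1, E-cadherin, measured 1.73, 1.52 and 2.17 CPM in shGLO1#1 and 0.548, 0.503 and 0.496 CPM in shGLO1#2, below the 15.8 to 32.6 CPM of shNT (log2 fold change between the GLO1-depleted clones -1.79, SE 0.47, adjusted p = 0.00651). Of 53 guidance ligands and receptors 6 were called in each direction (11.3%). ROBO4, an endothelial guidance receptor, was higher (log2 fold change 1.84) and EPHB6, a kinase-dead ephrin receptor, lower (-1.85).

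Genes that a breast epithelial cell does not normally use made up some of the lists with the highest shares of calls. Only 37 of 83 listed synaptic and neuronal genes and 33 of 87 listed channel genes were tested. The filter keeps a gene with enough counts in 1 clone alone. The shares therefore rest partly on genes that entered through the clone where they are high, and are a description. Over all tested genes 3.33% were called higher and 3.75% lower. Of 37 tested synaptic and neuronal genes 11 were called higher (29.7%) and 7 lower (18.9%), and of 33 ion channel genes 5 were called higher (15.2%) and 9 lower (27.3%). KCNQ3, a potassium channel subunit, measured 1.91, 1.41 and 1.60 CPM in shGLO1#1, 19.5, 11.7 and 14.3 CPM in shGLO1#2 and 7.32, 6.19 and 7.09 CPM in shNT (log2 fold change between the GLO1-depleted clones 3.21, SE 0.21). CACNA2D4, a calcium channel subunit, measured 12.3, 12 and 13.7 CPM against 1.34, 1.68 and 2.11 CPM (log2 fold change -2.88, SE 0.22), and KCNN4, a calcium-activated potassium channel, had a log2 fold change of -1.30.

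Of 54 listed cancer-testis antigens, germline genes that tumours often express, 16 were tested. Among these, 4 were called higher (25%) and 7 lower (43.8%), and the same limit of the filter holds for these shares. MAGEC2 measured 13, 5.17 and 6.5 CPM in shGLO1#1 and 49.5, 20.4 and 26.0 CPM in shGLO1#2 (log2 fold change 1.97), and SSX1 measured 16.4, 8.87 and 9.58 CPM against 43.2, 40.5 and 44.2 CPM (log2 fold change 1.88). MAGEA12 measured 10.2, 6.31 and 8.5 CPM in shGLO1#1 and 0.731, 1.56 and 1.18 CPM in shGLO1#2 (log2 fold change -2.83), and its neighbour CSAG1 had the same log2 fold change of -2.83. Many MAGE and SSX genes are near copies, so their values are uncertain. CTAG2 had 43 counts in shGLO1#1 and 0 in shGLO1#2, which is at least 13.9-fold lower when the floor is set at 3 counts for the 3 libraries together.

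Pathways with 0 calls in either direction were oxidative phosphorylation (41 tested members, median 0.08), ERK output and feedback (20, median -0.14), the Hippo pathway and YAP targets (30, median 0.09) and DNA methylation and chromatin silencing (35, median near 0). Over all tested genes 3.33% were called higher and 3.75% lower, so lists of this size hold few calls, and 0 calls does not show an unchanged pathway. Without the limit on fold change 8 of the ERK genes passed edgeR's test as higher (40%) and 6 as lower (30%), against 22.8% and 23.7% of all tested genes. Of the Hippo genes 8 passed as higher (26.7%) and 4 as lower (13.3%). DUSP1, a stress-induced phosphatase of MAP kinases, was called among 24 immediate early genes and stress phosphatases, at 18.1, 18.4 and 17.2 CPM in shGLO1#1, 49.8, 51.0 and 43.9 CPM in shGLO1#2 and 55.6, 57.2 and 46.2 CPM in shNT (log2 fold change between the GLO1-depleted clones 1.43, SE 0.09, adjusted p = 1.04e-07).

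Part of the difference between the clones followed the order of genes along chromosomes. The 13462 tested genes with a position in the reference were put in order, and the median log2 fold change was taken over every window of 25 neighbours. Over 12910 windows the 5th percentile was -0.45 and the 95th was 0.28, and the plot of windows in gene order shows long plateaus rather than single peaks. Over whole chromosomes the lowest medians were -0.41 on 18, -0.24 on 6, -0.21 on 7 and -0.19 on 2, and the highest was 0.24 on 16. This description was drawn from the data and carries no test.

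**Figure D5:**
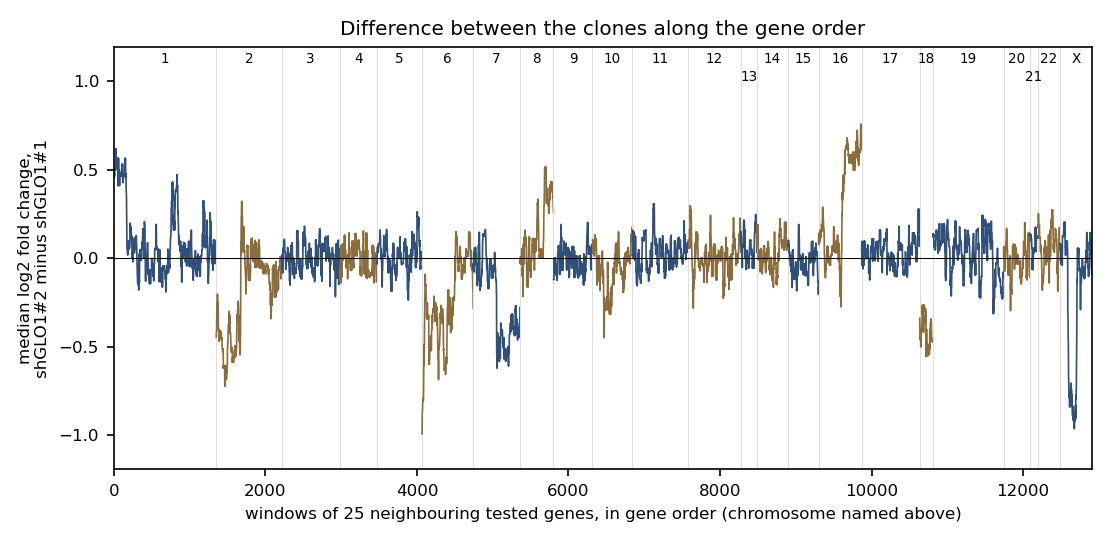
The line is the median log2 fold change, shGLO1#2 minus shGLO1#1, over each of 12910 windows of 25 neighbouring tested genes, in gene order with the chromosome named above and colours alternating between chromosomes. Plateaus are seen on 16, where the highest window reaches 0.76, on 6, where the lowest reaches -0.99, and on X.

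The highest window ran from MVD to FANCA on chromosome 16, with a median of 0.76 and 25 of 25 genes higher in shGLO1#2, 6 of them called, among them MVD, CDT1, RPL13 and the adenine salvage gene APRT (log2 fold change 1.30). Against shNT the window had medians of -0.60 in shGLO1#1 and 0.12 in shGLO1#2. Of the 5 highest windows that did not overlap, 4 lay on chromosome 16, and the medians of the 5 against shNT ran from -0.62 to -0.50 in shGLO1#1 and from -0.06 to 0.12 in shGLO1#2. Of the 5 most abundant genes called higher in shGLO1#2, 4 lay there, RPL13, SLC7A5, AARS and COTL1, the last an actin-binding protein gene at 197, 215 and 219 CPM in shGLO1#1 and 428, 429 and 430 CPM in shGLO1#2 (log2 fold change 1.02, SE 0.05). Without shGLO1#1 replicate 1 the value of COTL1 was 0.98, under the fold limit. The fifth, LIMCH1 on chromosome 4, encodes an activator of non-muscle myosin and measured 103, 107 and 113 CPM against 369, 354 and 358 CPM (log2 fold change 1.74, SE 0.06, adjusted p = 4.27e-10), with neighbours at a median of 0.04.

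The lowest window ran from DUSP22 to PRPF4B on chromosome 6, with a median of -0.99, 2 of 25 genes higher and 11 called lower in shGLO1#2. Here shGLO1#2 was the clone away from the control, with a median of -0.76 against shNT, where shGLO1#1 had 0.06. The window held FOXQ1, a forkhead transcription factor that measured 99.0, 101 and 101 CPM in shGLO1#1 and 37.9, 27.9 and 35.2 CPM in shGLO1#2 (log2 fold change -1.57, SE 0.11, adjusted p = 2.00e-07), and SERPINB1, an inhibitor of neutrophil proteases, at 186, 186 and 179 CPM against 78.0, 73.8 and 77.6 CPM (log2 fold change -1.27, SE 0.07). The other 4 of the 5 lowest windows lay on the X chromosome. The window from OTUD5 to IQSEC2 had a median of -0.84, with 9 genes called lower and a median against shNT of 0.81 in shGLO1#1 and -0.04 in shGLO1#2. The window from FGD1 to STARD8 had the same rounded median of -0.84, with 6 genes called lower.

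Counted by chromosome, after the windows had been seen, 10.9% of the tested genes of the X chromosome, 9.18% of chromosome 18 and 8.84% of chromosome 6 were called lower in shGLO1#2, against 3.75% of all tested genes. The largest shares called higher were 5.59% of chromosome 8, 5.56% of chromosome 21, 5.53% of chromosome 1, 5.24% of chromosome 16 and 4.89% of the X chromosome, against 3.33%. When the median of the 24 nearest genes was subtracted from each gene before the fold limit was applied, 826 genes were called, of which 755 were among the 971 called without it. They were 402 genes called lower in shGLO1#2 and 424 genes called higher in shGLO1#2. SERPINB1 then stood at -0.27, FOXQ1 at -0.73, APRT at 0.69, RPL13 at 0.31, COTL1 at 0.42 and AARS at 0.68, all under the fold limit, and the call of CDT1 was lost too. DNA was not measured here, so copy number and other reasons for neighbouring genes to differ together were not tested.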

How the data were processed

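RNA was sequenced from 9 libraries, 3 each of shNT, shGLO1#1 and shGLO1#2. Per the labels, the authors made TruSeq libraries from total RNA, used bcl2fastq 2.17, TopHat2 2.1.1 on hg19 and HTSeq, and deposited raw counts per gene symbol. The sources used here do not give the annotation, the strand setting or the HTSeq version, and with strand unknown, overlapping antisense genes cannot be separated. Gene rows held 77.05 to 79.51% of the counted alignments, and rows that name no gene were left out.

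The counts of all 9 libraries were fitted in edgeR 4.0.16 (R 4.3.3; filterByExpr with minimum count 10 and total 15, which kept 13704 of 26364 genes, TMM, glmQLFit and glmQLFTest), with p-values adjusted by Benjamini and Hochberg over all tested genes. Standard errors are the fold change on the log2 scale over the square root of F. The fit was tested on simulated counts. Where a clone had 1 to 3 counts, the ratio has an exact (Clopper-Pearson) 95% interval, and where it had 0, a floor of 3 counts over the group. Floors and intervals cover counting error only.

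Members and lists were chosen with earlier results of these data known. Of the 51 lists, those given above were described by counts and medians, with no set test. A member of any list can pass the filter through 1 clone alone, so the shares called are a description. Named were GLO1, the 12 genes in each direction with the largest fold change among called genes without overlap and with at least 5 CPM in the higher clone, the 5 most abundant called genes in each direction, up to 4 called members of each list in each direction, and the end and called genes of windows. Some genes that this rule names are not reported here, but they remain in the counts and medians. Gene order and promoters came from RefSeq on GRCh38.p14, which was used only for names, order and sequence. Promoters matched 10754 of 13704 tested genes (78.5%), 69.6% of the genes called higher and 75.9% of those called lower, so a comparison of base composition was void. Alternatives were DESeq2 1.42.0, other size factors, other filters, only the 6 clone libraries, a replicate block, glmTreat and each library left out.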

Additional observations from a re-analysis of the deposited data

Results flagged for a closer look

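The genes below were called in opposite directions against shNT in the 2 clones. All comparisons with shNT share its 3 libraries, and this choice fixes a large difference between the clones, so the values are a description. Higher in shGLO1#2 and lower in shGLO1#1 than in shNT were STXBP6, with a log2 fold change between the clones of 9.64, APCS with 8.07, KISS1 with 5.24, PAPPA2 with 4.49, PTGS1 with 4.39, FGF13 with 4.08, KCNQ3 with 3.21 and the protocadherin gene PCDH1 with 2.11. The fitted values of STXBP6, APCS and FGF13 rest on 1, 1 and 3 counts in shGLO1#1. For FGF13 the ratio was 18.9, with an exact 95% interval of 6.15 to 94.7 for counting error.

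Lower in shGLO1#2 and higher in shGLO1#1 than in shNT were CEMIP with -4.36, RNF128 with -4.18, C16orf45 with -4.13, PALM with -3.68, SLC14A1 with -3.41, ANGPTL2, a secreted angiopoietin-like protein, with -2.50 and EFEMP1 with -2.32. ANGPTL2 measured 18.8, 20 and 17.7 CPM in shGLO1#1, 3.05, 3.57 and 3.35 CPM in shGLO1#2 and 8.87, 7.04 and 9.74 CPM in shNT.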

How the results depend on the processing

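Each condition was 1 clone, so no alternative separates the hairpin, the clone and the level of GLO1. No named gene reversed, but many lost their call. Of 263 named genes 135 lost it with glmTreat and 71 with the neighbour median subtracted. With glmTreat, which tests against the fold limit itself, 318 genes were called, 181 higher and 137 lower, with 2 members called higher of the sterol list, 2 of the stress response list, 5 of the cytokine list and 1 of MHC class II lower. MHC class II had 3 called lower with a mean of at least 1 CPM, and 2 with the neighbour median subtracted, an alternative chosen after seeing the data, as was leaving out chromosomes 16 and X (861 called). The other calls came to 965 with DESeq2's size factors, 967 with upper quartile factors, 915 with DESeq2, 1205 with no filter, 745 with a mean of at least 1 CPM and 939 with 6 libraries. Leaving out each library gave 938 to 1026 genes called, and 2 to 5 for MHC class II, where shGLO1#1 replicate 1 gave the 2. Deviations of same-numbered clone libraries correlated at 0.20, 0.07 and 0.34, so the numbers were not taken as pairs, with replicates 1 and 3 of the clones, but not replicate 2, correlating best with their own number. Same-numbered shGLO1#2 and shNT libraries correlated at 0.21, 0.19 and 0.31, each the best match among the shNT libraries, and the values against shNT were fitted without a block. With a replicate block 989 genes were called over 9 libraries and 951 over 6. At 15314238 to 18495576 counts a library, genes under about 1 CPM rest on few reads.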
